A study of Mus musculus with 27 samples.

Results

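The genes described here encode the proteins that load and fire replication origins and copy DNA at the fork. There are 46 of them, listed by name, and all 46 were found among the 18193 genes that had a probe set with 1 gene symbol on the Affymetrix Mouse Genome 430 2.0 array. They were listed by function, and no measured value was used to list them. Earlier results of these data were known when the list was made. Each gene is represented by its brightest probe set; 13 of the genes had 1 probe set and 33 had several.

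RNA came from fetal liver cells of E14.5 mouse embryos, lysed at once (0 h) or kept for 24 h or 48 h in a serum-rich medium without added drugs. The 27 arrays cover 4 genotypes, named here as WT (wild type), p107KO (knockout of p107, the product of Rbl1), Rb1KO (knockout of Rb1) and DKO (knockout of both). WT had 3 arrays at 0 h, 2 at 24 h and 2 at 48 h, and p107KO had 2, 2 and 1. Rb1KO had 5, 4 and 2 arrays at these times and DKO had 2, 1 and 1. Neither alleles nor strain are named in the labels. Nor do they state that replicates were separate embryos or cultures, so p-values measure the spread between these arrays, which may be technical. In RNA from whole liver cultures, fewer cells of a type and less RNA per cell cannot be told apart.

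Before S phase the origin recognition complex (ORC), Cdc6 and Cdt1 place the ring-shaped Mcm2 to Mcm7 helicase on DNA, a step called licensing that geminin (Gmnn) blocks outside G1. The Cdc7 kinase with Dbf4, and Cdc45 with the GINS complex, turn the loaded ring into an active helicase; primase, the DNA polymerases, the Pcna clamp with its loader RFC, and the single-strand binder RPA then copy the strands. Many of these genes are textbook targets of E2F transcription factors, which the pocket proteins Rb1 and p107 bind and hold back. In the fetal liver most cells at this stage are dividing red cell precursors, which stop cycling as they mature.

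The start regions of 6 of the genes are shown because E2F words are the sequence feature most often tied to this gene family. The stretches run 170 bases before to 30 bases after the annotated start, 5′ to 3′ on the gene's own strand, and were taken from RefSeq promoters of mouse build GRCm38.p6. Capitals mark a match to any of the words TTTCCCGC, TTTGGCGC, TTTCGCGC and TTTGCCGC on either strand; adjoining capitals in Mcm6 are overlapping matches. Cdc6 lies at chr11:98907981-98908180 on the plus strand, Mcm6 at chr1:128359676-128359875 on the minus strand, Clspn at chr4:126556810-126557009 on the plus strand and Rfc3 at chr5:151651179-151651378 on the minus strand; all 4 rose without Rb1. Orc3, at chr4:34614913-34615112 on the minus strand, has a match and did not pass the test. Prim1, at chr10:128015045-128015244 on the plus strand, rose and has no match in this window.
Cdc6: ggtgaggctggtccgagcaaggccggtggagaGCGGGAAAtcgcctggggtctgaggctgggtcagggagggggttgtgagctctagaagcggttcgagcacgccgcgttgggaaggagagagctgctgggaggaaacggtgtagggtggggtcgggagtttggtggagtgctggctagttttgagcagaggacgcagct
Mcm6: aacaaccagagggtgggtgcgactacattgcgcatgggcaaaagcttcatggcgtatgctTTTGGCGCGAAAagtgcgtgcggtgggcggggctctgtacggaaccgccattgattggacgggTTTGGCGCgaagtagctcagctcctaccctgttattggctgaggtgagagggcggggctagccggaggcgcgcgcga
Clspn: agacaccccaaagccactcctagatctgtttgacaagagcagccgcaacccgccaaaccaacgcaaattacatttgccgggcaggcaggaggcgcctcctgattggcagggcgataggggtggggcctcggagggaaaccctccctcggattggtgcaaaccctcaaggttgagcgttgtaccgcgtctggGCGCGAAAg
Rfc3: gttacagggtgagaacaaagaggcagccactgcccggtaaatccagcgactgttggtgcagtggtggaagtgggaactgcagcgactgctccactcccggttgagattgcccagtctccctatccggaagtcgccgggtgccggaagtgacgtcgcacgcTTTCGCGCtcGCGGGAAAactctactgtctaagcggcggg
Orc3: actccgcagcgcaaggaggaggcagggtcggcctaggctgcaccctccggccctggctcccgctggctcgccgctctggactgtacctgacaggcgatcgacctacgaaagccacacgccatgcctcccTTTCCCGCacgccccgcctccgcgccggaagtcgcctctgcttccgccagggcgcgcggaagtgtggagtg
Prim1: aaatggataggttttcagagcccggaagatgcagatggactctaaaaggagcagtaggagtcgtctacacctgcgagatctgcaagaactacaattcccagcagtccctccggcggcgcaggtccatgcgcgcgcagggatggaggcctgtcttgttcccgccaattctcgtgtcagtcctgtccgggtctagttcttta

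Promoter windows of 300 bases, 250 before to 50 after a start, were given for 37 of the 46 genes (46 windows, since some genes have more than 1 start). An E2F word occurred in 15 of the 46 windows (32.6%), in 15 different genes, against 2.26% of the 32851 windows of all genes and 4.16% of the windows of genes tested here. The CCAAT box was found in 52.2% of the replication gene windows, 37.4% of all windows and 37.5% of those of genes tested. The word TTTGAA, searched as a cell cycle element of mitotic genes, was in 17.4% of them, 17.9% of all windows and 12.1% of those of genes tested. Among genes called in the average comparison of Rb1KO with WT 9 of 22 with a window had a match (40.9%), beside those not called (6 of 15, 40%). The called genes with a match were Cdc6, Cdt1, Mcm5, Mcm6, Mcm7, Rfc3, Pola1, Lig1 and Clspn; those not called were Orc1, Orc3, Mcm3, Gins3, Pold1 and Pole2. A match describes letters in a window and is not a site at which a factor was seen.

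As deposited, the arrays had a nearly common trimmed mean, and the array medians lay between 81.0 and 119.3. The Rbl1 probe set checked the p107 labels, with signals of 70.3 to 167.5 on the arrays lacking p107 and 798.0 to 3502.3 on the others. Rb1 signal was 6609 ± 482 (SD, n = 3) in WT and 2109 ± 481 (SD, n = 5) in Rb1KO at 0 h. At 48 h it was 4830 ± 881 (SD, n = 2) in Rb1KO and 5994 on the DKO array, against 6164 ± 592 (SD, n = 2) in WT, so this probe set does not check the Rb1 labels at 48 h. The Rb1 difference between Rb1KO and WT went from -1.66 log2 at 0 h to -0.36 at 48 h, a change of 1.30 (limma adjusted p = 0.0143). The 48 h arrays below are therefore those labelled Rb1KO and DKO. A 48 h array said below to lack Rb1 is one with such a label. A set of 4 arrays stood apart from those of their time. Replicate 5 of Rb1KO at 0 h correlated with the other 0 h arrays at a median r of 0.9537, against 0.9694 to 0.9803 for the rest, and the 24 h arrays numbered 1 from the p107KO, DKO and Rb1KO groups at 0.9373 to 0.9515, against 0.9557 to 0.9615. Results that change without these 4 arrays are given with and without them. Signal of the Y-linked gene Eif2s3y was above 200 on 0 of 7 WT arrays and on all 4 DKO arrays, on 2 of 5 p107KO arrays and on 1 array of Rb1KO at each time. In DKO against WT the loss of both genes and embryo sex therefore cannot be told apart, and DKO against Rb1KO was unbalanced as well (4 of 4 against 3 of 11 arrays).

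All 46 genes passed the filter on low signal, which left out the dimmest 40% of genes by mean over all arrays; the dimmest of the 46, Gins3, lay at percentile 65.1 of all genes. The comparisons below come from limma fits on log2(signal + 32) over the 10916 genes that passed. A gene is said to have risen, fallen or been called when its p-value, adjusted over all 10916 genes by the Benjamini-Hochberg method, was under 0.05. Folds are on the log2(signal + 32) scale and errors of log2 differences are standard errors (SE).

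The genes called between Rb1KO and WT were all higher in Rb1KO, with no call in fresh liver, 8 at 24 h and 28 at 48 h. In Rb1KO against WT at 0 h (5 and 3 arrays) 0 of 46 genes were called. Of all genes 0.54% were called higher and 0.0733% lower. At an unadjusted p under 0.05, 7 of the 46 were higher and 0 lower, beside 734 of all 10916 genes in either direction. The median difference over the 46 was 0.16 log2, against -0.04 over all genes. At 24 h (4 and 2 arrays) 8 genes rose and 0 fell (17.4% of the 46, with 4.15% of all genes called higher and 3.48% lower), and the median difference was 0.27. These 8 were Orc6, Cdc6, Cdc45, Rfc3, Prim1, Rpa1, Rpa2 and Clspn.

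At 48 h (2 and 2 arrays) 28 of the 46 rose and 0 fell, or 60.9%, where 7.46% of all genes were called higher and 2.91% lower. The median difference was 0.78, or 1.72-fold, against -0.09 over all genes, and 42 of the 46 differences were positive. On 37 of the 46 genes both Rb1KO arrays lay above both WT arrays, a pattern that 23.1% of all genes showed. Averaged over the 3 times, 27 genes rose and 0 fell (58.7%, with 10.3% of all genes called higher and 8.57% lower), with a median of 0.41. In that average 4 of 5 megakaryocyte markers (Pf4, Gp1bb, Gp9 and Itgb3, with a list median of -0.52), the red cell marker Epor and the hepatocyte marker Fgb were lower in Rb1KO; their part in the result was not tested. Of the 8 genes called at 24 h, 7 were also called at 48 h; the other was Cdc45, with 0.49 ± 0.18 SE at 48 h (limma adjusted p = 0.0944).

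Single arrays weighed on these counts. At 24 h the count was 2 without either WT array, 5 without replicate 3 of Rb1KO and 13 without the 4 arrays that stood apart. At 48 h it was 17 without replicate 2 of WT and 14 without replicate 2 of Rb1KO, with medians of 0.66 and 0.59. The latter is also the 48 h Rb1KO array with Y-linked signal, and the count was 11 in the fit without all such arrays. Across the 15 alternative fits at 48 h, 11 of the 28 calls were kept in every one: Orc6, Cdc6, Cdt1, Gmnn, Pcna, Rfc3, Prim1, Rpa1, Rpa2, Clspn and Tipin. Without replicate 2 of Rb1KO the 14 calls lost at 48 h were Mcm2, Mcm3, Mcm5, Mcm6, Mcm7, Dbf4, Gins1, Gins4, Rfc4, Pola1, Pola2, Pole, Fen1 and Rpa3. Without replicate 2 of WT 11 were lost, Cdc7 and all of these but Mcm6, Mcm7, Gins4 and Rfc4. Without replicate 1 of Rb1KO 4 were lost (Cdc7, Gins1, Pola1 and Rpa3), as without replicate 1 of WT (Mcm5, Gins4, Pola1 and Rpa3). For the average over times, 21 of 27 calls were kept in all 29 alternatives.

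**Figure D1:**
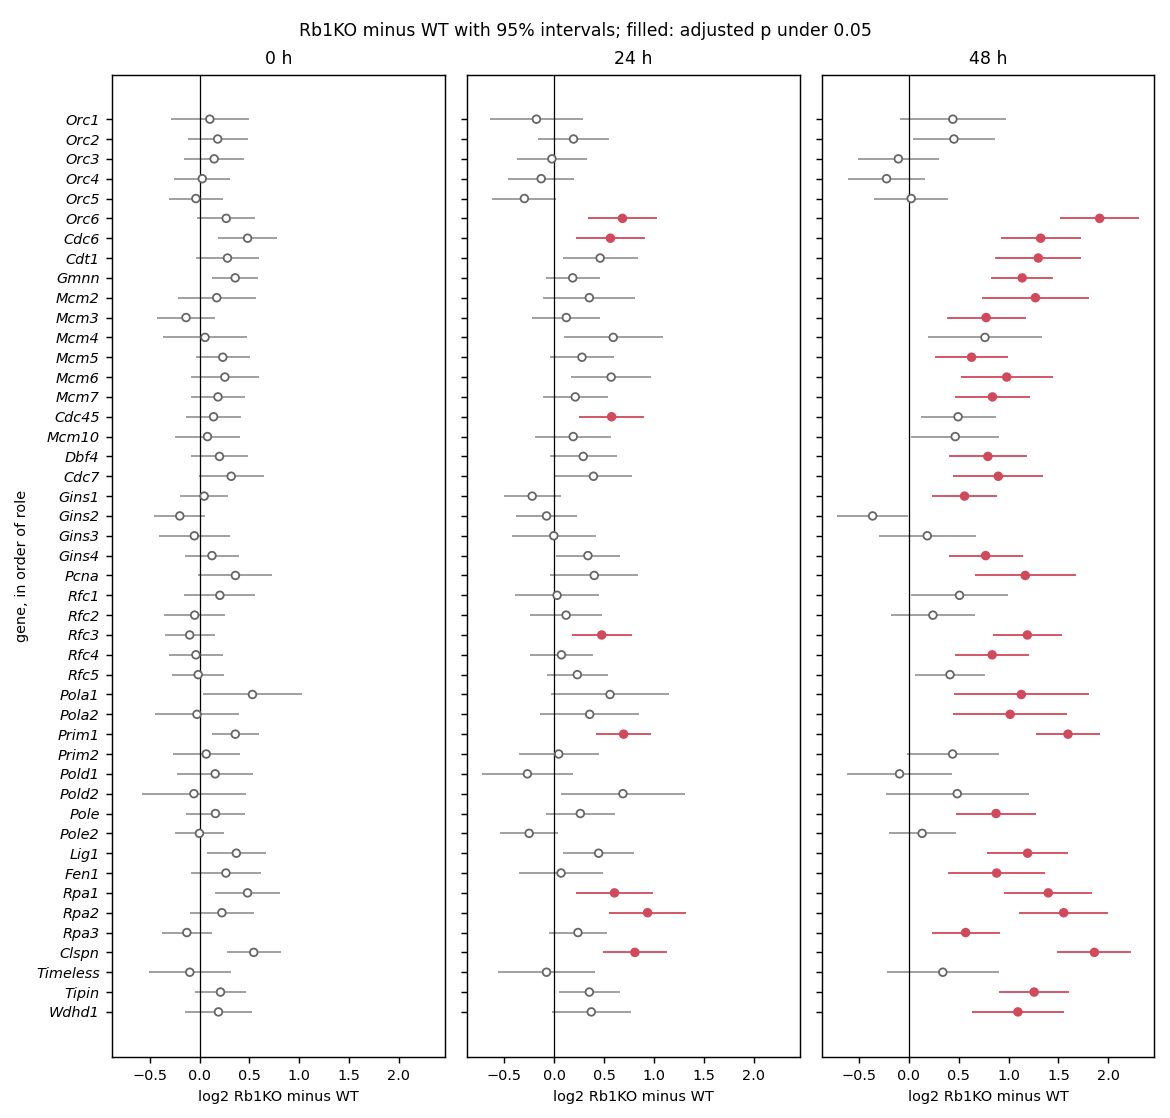
Difference in log2(signal + 32) between Rb1KO and WT for each of the 46 genes, in order of role, at 0 h, 24 h and 48 h; points are limma estimates, bars are 95% intervals, and filled red points have an adjusted p under 0.05. There are 0 filled points at 0 h, 8 at 24 h and 28 at 48 h, all to the right of 0.

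Between Rb1KO and WT the origin recognition complex had 1 of its 6 subunits called, at 24 h, at 48 h and in the average. Orc6 gave signals of 1760.6, 1511.4 and 1827.7 in WT at 0 h and 1945.0, 1845.1, 2222.2, 1812.6 and 2469.2 in Rb1KO. At 24 h it was 2311.4 and 2277.1 in WT and 4354.5, 3142.6, 3445.6 and 3995.1 in Rb1KO. The groups overlapped at 0 h and not at 24 h. At 48 h Orc6 was at 666.5 and 775.9 in WT, 989.2 in p107KO, 2432.6 and 3216.3 in Rb1KO, and 3558.5 in DKO. All 3 arrays lacking Rb1 lay above all 3 that have it, and the difference between Rb1KO and WT was 3.77-fold (log2 1.91 ± 0.19 SE, limma adjusted p = 4.72e-07). This was the largest of the 46 differences at 48 h.

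The other ORC subunits were not called between Rb1KO and WT at any time. Orc2 was at 1185.1 and 1045.8 in WT at 48 h and at 1400.4 and 1679.3 in Rb1KO, without overlap, a difference of 0.45 ± 0.20 SE (limma adjusted p = 0.170). Orc1, the largest subunit, differed by 0.44 ± 0.26 SE, Orc5 by 0.02 ± 0.18 SE, Orc3 by -0.11 ± 0.20 SE and Orc4 by -0.23 ± 0.18 SE. The further, dimmer probe sets of Orc4 differed by 0.28 to 0.35 at 48 h, and those of Orc3 by 0.24 and -0.52. ORC genes also differed from each other over time. Orc5 fell in every step tested, by 1.5 in WT and by 1.18 in Rb1KO from 24 h to 48 h, while Orc4 rose from 0 h to 24 h by 0.59 ± 0.17 SE in WT and was not called after that (-0.11 ± 0.18 SE). Orc5 signals were 829.8 and 676.7 in WT, 894.9 in p107KO, 740.3 and 783.7 in Rb1KO and 961.8 in DKO at 48 h, with overlap between genotypes.

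All 3 licensing factors rose without Rb1 at 48 h and in the average, which includes the 48 h arrays. Cdc6, the ATPase that loads the helicase with ORC, was at 5685.7, 5188.3 and 5480.3 in WT at 0 h and at 7077.8, 7356.8, 6858.3, 7273.1 and 9864.9 in Rb1KO. After 48 h Cdc6 was at 2063.1 and 2005.8 in WT, 2297.8 in p107KO, 4264.8 and 6172.1 in Rb1KO and 7074.6 in DKO. Every Rb1KO array lay above every WT array at both times. The difference was 0.48 ± 0.14 SE at 0 h (limma adjusted p = 0.235), 0.56 ± 0.17 SE at 24 h (adjusted p = 0.0423) and 1.32 ± 0.19 SE at 48 h (adjusted p = 6.76e-05).

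Gmnn, the inhibitor of Cdt1, was at 3175.2 and 2646.8 in WT, 3654.8 in p107KO, 6309.0 and 6510.2 in Rb1KO and 7475.1 in DKO at 48 h. The arrays lacking Rb1 stood clear of the others, at 2.20-fold in Rb1KO over WT (limma adjusted p = 1.99e-05). Cdt1, which brings the helicase to ORC, was at 8851.4 and 8635.5 in WT and 7774.3 in p107KO, against 21824.0 and 21242.8 in Rb1KO and 19872.2 in DKO. Its difference was 2.46-fold (log2 1.30 ± 0.21 SE, limma adjusted p = 0.000183), so the loading factor and its inhibitor were both higher.

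Of the 6 helicase subunits Mcm2 to Mcm7, 5 rose at 48 h and 5 in the average, with Mcm4 called in the average and not at 48 h, and Mcm3 the reverse. Mcm6 was at 5391.7 and 5409.3 in WT, 4712.8 in p107KO, 9397.6 and 12156.3 in Rb1KO and 12427.8 in DKO at 48 h. Arrays with and without Rb1 did not overlap, and Rb1KO was 1.97-fold over WT (log2 0.98 ± 0.22 SE, limma adjusted p = 0.00514). Without replicate 2 of Rb1KO the difference was 0.80 and was not called. At 0 h Mcm6 ran from 8463.1 to 10450.3 in WT and from 9870.9 to 14263.7 in Rb1KO, and the groups overlapped.

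Mcm2 was at 2296.2 and 1283.3 in WT, 2391.5 in p107KO, 3575.4 and 4896.7 in Rb1KO and 3700.7 in DKO at 48 h. Its 2.41-fold difference was the largest among the 6 subunits (log2 1.27 ± 0.26 SE, limma adjusted p = 0.00185). Without replicate 2 of WT or replicate 2 of Rb1KO it was 0.86 or 1.04 and not called. Mcm7, Mcm3 and Mcm5 rose by 0.84, 0.77 and 0.63; the lowest values with 1 array left out, 0.76 for Mcm7, 0.52 for Mcm3 and 0.50 for Mcm5, were not called. Mcm4 was at 5068.4 and 4352.3 in WT and at 6067.9 and 10516.8 in Rb1KO; the Rb1KO arrays were far apart and the difference of 0.76 ± 0.28 SE was not called (limma adjusted p = 0.0897).

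Among the factors that turn the loaded helicase on, the kinase Cdc7 and its activator Dbf4 rose at 48 h. Cdc7 was at 695.8 and 553.0 in WT, 812.1 in p107KO, 1265.4 and 1104.7 in Rb1KO and 1411.5 in DKO. The groups did not overlap, at 0.90 ± 0.22 SE (limma adjusted p = 0.00816); the call was lost without replicate 2 of WT (0.74) or replicate 1 of Rb1KO (0.80). Dbf4 was at 2515.3 and 2132.7 in WT, 2710.5 in p107KO, 3788.6 and 4291.7 in Rb1KO and 6048.8 in DKO, with the DKO array highest. Its difference was 0.79 ± 0.19 SE (limma adjusted p = 0.00687), and 0.67 or 0.70, not called, without replicate 2 of WT or of Rb1KO. Dbf4 was also the only gene called at 48 h with a further probe set of opposite sign, a dim one with a mean signal of 56.8 against 4410.0 for the brightest; the other 26 of 27 further probe sets of called genes had the sign of the brightest one. Cdc45, a part of the active helicase, rose at 24 h (0.57 ± 0.16 SE, adjusted p = 0.0272), and Mcm10 was not called at any time.

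Of the 4 GINS subunits, which sit in the active helicase beside Cdc45, 2 were called between Rb1KO and WT at 48 h. Differences between the subunits were not tested. In DKO against p107KO averaged over times all 4 were positive, at 0.13 to 0.34, and 0 were called. Gins4 was at 1534.2 and 1754.5 in WT, 1855.3 in p107KO, 2385.8 and 3327.2 in Rb1KO and 2764.9 in DKO at 48 h. It rose by 0.77 ± 0.18 SE (limma adjusted p = 0.00591), a call lost without replicate 1 of WT (0.67) or replicate 2 of Rb1KO (0.53). Gins1 rose by 0.56, and was at 0.41 to 0.60 and not called without replicate 2 of WT or either Rb1KO array. Gins2 was the gene with the lowest difference of the 46, at 986.8 and 981.3 in WT, 946.8 in p107KO, 865.6 and 661.4 in Rb1KO and 1011.4 in DKO. Both Rb1KO arrays lay under both WT arrays, yet the difference of -0.37 ± 0.17 SE was not called (limma adjusted p = 0.200). A further, dimmer probe set of Gins2 differed by 0.13 at 48 h. Gins3 differed by 0.18 ± 0.23 SE.

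Pcna, the sliding clamp that holds polymerases on DNA, was at 21136.1 and 19746.6 in WT, 19506.5 in p107KO, 48240.9 and 43677.1 in Rb1KO and 35429.5 in DKO at 48 h. The arrays lacking Rb1 did not overlap the rest, and Rb1KO was 2.24-fold over WT (log2 1.17 ± 0.25 SE, limma adjusted p = 0.00256). In the 24 h cultures Rb1KO gave 90425.6, 41147.2, 50221.5 and 52658.3, against 40562.5 and 44365.9 in WT. Replicate 1, an array that stood apart, was far above the rest, and the groups overlapped.

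The clamp loader RFC had 2 of its 5 subunits called at 48 h. Rfc3 was at 1509.4, 1796.9 and 1616.3 in WT at 0 h and at 1566.4, 1258.4, 1818.1, 1489.1 and 1544.4 in Rb1KO, with overlap. After 48 h Rfc3 was at 682.0 and 854.6 in WT, 777.2 in p107KO, 1746.3 and 1814.2 in Rb1KO and 1821.3 in DKO. The 3 arrays lacking Rb1 were all above the others, and Rb1KO was 2.28-fold over WT (limma adjusted p = 4.02e-05). Rfc4 was at 2533.3 and 2362.8 in WT, 2939.6 in p107KO, 3837.8 and 5017.2 in Rb1KO and 5854.8 in DKO, a difference of 0.83 ± 0.18 SE (limma adjusted p = 0.00289) that was 0.64 and not called without replicate 2 of Rb1KO. The large subunit Rfc1 differed by 0.51 ± 0.24 SE, Rfc5 by 0.41 ± 0.17 SE and Rfc2 by 0.24 ± 0.20 SE, none of them called. Further probe sets of Rfc1 differed by 0.69 and 0.77 at 48 h, and those of Rfc2 by 0.045 and 0.041.

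Polymerase alpha and primase, which start each new strand, had 3 of 4 subunits called at 48 h (Pola1, Pola2 and Prim1), polymerase epsilon 1 of 2 and polymerase delta 0 of 2. Prim1, the catalytic primase subunit, was at 6506.8, 5999.6 and 6188.4 in WT at 0 h and at 8157.6, 7922.6, 7579.5, 6766.0 and 9824.7 in Rb1KO. At 24 h it was at 6444.5 and 7062.7 in WT and at 11121.7, 10531.6, 10571.7 and 11590.0 in Rb1KO. At 48 h it was at 2745.5 and 2905.4 in WT, 3028.1 in p107KO, 7680.5 and 9629.2 in Rb1KO and 8586.6 in DKO. Rb1KO lay above WT without overlap at all 3 times. The difference was 0.36 ± 0.11 SE at 0 h (limma adjusted p = 0.300), 0.70 ± 0.13 SE at 24 h (0.00225) and 1.60 ± 0.16 SE at 48 h (3.10e-07), the last 3.02-fold.

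Pola1, the catalytic subunit of polymerase alpha, was at 921.2 and 1056.8 in WT, 1340.7 in p107KO, 2169.5 and 2218.2 in Rb1KO and 2201.7 in DKO at 48 h. The groups did not overlap, at 1.13 ± 0.33 SE (limma adjusted p = 0.0274); with any 1 of the WT or Rb1KO arrays left out it was 1.03 to 1.22 and not called. Pola2 rose by 1.02 and Pole, the catalytic subunit of polymerase epsilon, by 0.87; without replicate 2 of WT they were at 0.74 and 0.64, and without replicate 2 of Rb1KO at 0.86 and 0.76, not called. The large primase subunit Prim2 differed by 0.44 ± 0.22 SE, and Pole2 by 0.13 ± 0.16 SE, neither called. Further probe sets of Prim2 differed by 0.035 and 0.063 at 48 h. In polymerase delta Pold1 differed by -0.09 ± 0.25 SE and Pold2 by 0.48 ± 0.35 SE, neither called; the 95% interval of the average difference reached from -0.33 to 0.19 for Pold1.

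Both genes of lagging strand maturation rose. Lig1, the ligase that seals Okazaki fragments, was at 3727.9 and 2878.6 in WT, 3652.8 in p107KO, 5871.1 and 9621.2 in Rb1KO and 7274.2 in DKO at 48 h. The arrays lacking Rb1 lay above the rest, and Rb1KO was 2.28-fold over WT (limma adjusted p = 0.000254). Fen1, the flap endonuclease, was at 3350.9 and 2778.9 in WT, 3371.6 in p107KO, 5028.7 and 6324.1 in Rb1KO and 6002.1 in DKO, a difference of 0.88 ± 0.23 SE (limma adjusted p = 0.0162). Without replicate 2 of WT or of Rb1KO it was 0.75 or 0.71 and not called. The groups did not overlap here either.

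All 3 subunits of RPA, which coats single-stranded DNA, rose at 48 h. Rpa2 was at 1957.8 and 2012.2 in WT at 24 h and at 3956.9, 4459.7, 3243.7 and 3739.4 in Rb1KO. After 48 h Rpa2 was at 1052.7 and 1050.6 in WT, 1271.4 in p107KO, 3034.6 and 3262.8 in Rb1KO and 3738.7 in DKO. There was no overlap at either time, and the differences were 1.91-fold at 24 h (limma adjusted p = 0.00268) and 2.93-fold at 48 h (adjusted p = 3.35e-05). Rpa1 was at 7779.4 and 7176.8 in WT, 7643.6 in p107KO, 19091.8 and 20409.1 in Rb1KO and 16405.9 in DKO at 48 h, or 2.63-fold in Rb1KO over WT (limma adjusted p = 0.000106). Rpa3, the small subunit, rose by 0.57 ± 0.16 SE (limma adjusted p = 0.0269), a call lost with any 1 of the 4 arrays left out (0.51 to 0.63).

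Of the 4 fork protection genes 3 rose. Clspn encodes claspin, a mediator of the replication checkpoint. It was at 3341.9, 3178.4 and 3532.2 in WT at 0 h and at 4864.3, 5247.0, 4594.4, 4713.0 and 5063.7 in Rb1KO. By 48 h it was at 1816.3 and 1452.1 in WT, 1902.9 in p107KO, 5102.4 and 7010.5 in Rb1KO and 6445.5 in DKO. Rb1KO lay above WT without overlap at both times; the 0 h difference of 0.54 ± 0.13 SE had the lowest adjusted p of the 46 at that time (limma, 0.0619), and that at 48 h was 3.63-fold (limma adjusted p = 2.96e-07).

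Tipin was at 5155.6 and 4585.3 in WT, 5767.6 in p107KO, 11333.4 and 11981.1 in Rb1KO and 10036.3 in DKO at 48 h, or 2.39-fold in Rb1KO over WT (limma adjusted p = 2.48e-05). Its partner Timeless was at 683.8 and 929.4 in WT, 1273.3 in p107KO, 827.6 and 1249.8 in Rb1KO and 1335.4 in DKO. The Timeless groups overlapped and the difference of 0.34 ± 0.27 SE was not called (limma adjusted p = 0.505), although Tipin and Timeless act as a pair at the fork; the difference between them was not tested. Wdhd1, which links the helicase to polymerase alpha, rose by 1.09 ± 0.22 SE.

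**Figure D2:**
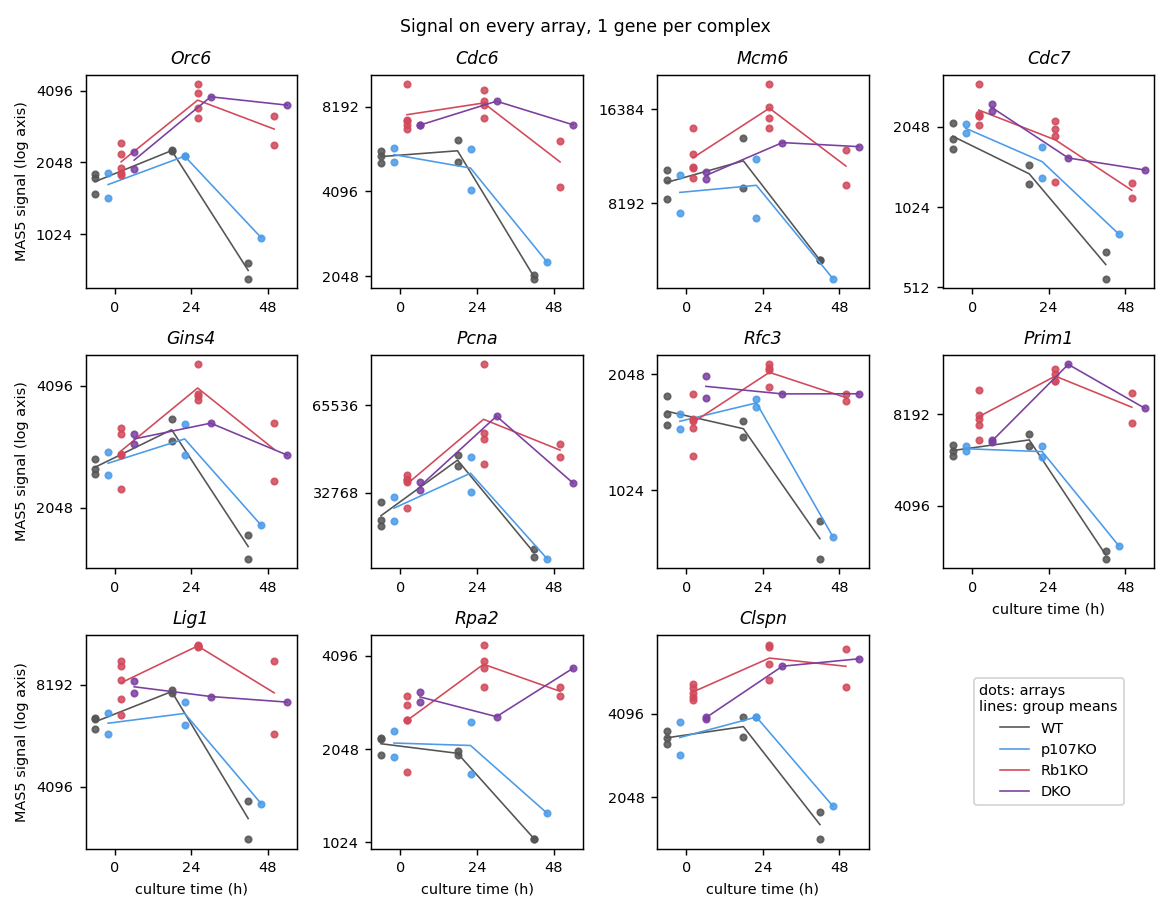
Signal on every array of the gene of each complex with the smallest adjusted p in Rb1KO against WT averaged over times, on a log axis, against culture time; dots are arrays, shifted sideways by genotype, and lines join group means. At 48 h the WT and p107KO dots sit under the Rb1KO and DKO dots in all 11 panels, as this choice of genes favours (13 of the 46 lack that separation), for example Orc6 at 666.5 to 989.2 against 2432.6 to 3558.5.

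In culture the calls from 0 h to 24 h went in both directions, and those from 24 h to 48 h were all lower. From 0 h to 24 h in WT 9 genes rose (19.6%, with 15.0% of all genes called higher) and 4 fell (8.7%, with 21.9% of all genes called lower), so the share that rose was near that of all genes. Those that rose were Orc2, Orc4, Gmnn, Mcm7, Pcna, Rfc1, Rfc4, Rpa1 and Tipin, and those that fell were Orc5, Pola2, Rpa3 and Timeless. This split depends on the scaling: quantile normalization moved the median change of all genes from -0.08 to 0.06 and gave 6 genes higher and 6 lower, with a median over the 46 of -0.0034 in place of 0.13. The count of higher genes was 1 without replicate 2 of WT at 24 h, 3 and 5 without replicates 2 and 1 of WT at 0 h, and 15 without the 4 arrays apart, where 7 were lower. Without replicate 1 of WT at 0 h, 2 were lower.

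In the same step in Rb1KO 23 genes rose (50%, with 20.4% of all genes called higher) and 6 fell (13.0%, with 30.6% called lower). This step had 5 and 4 arrays in Rb1KO and 3 and 2 in WT, and its difference between genotypes was not tested. In Rb1KO Orc6 rose by 0.85 ± 0.13 SE, Tipin by 0.76 ± 0.11 SE and Rpa1 by 0.74 ± 0.14 SE. Those that fell were Orc5, Cdc7, Pola2, Pold1, Pole and Timeless, and 3 genes fell without replicate 1 of Rb1KO at 24 h, which is among the arrays apart. Quantile normalization moved the all-gene median here from -0.09 to 0.05 and gave 19 higher and 7 lower. Listed markers of hepatocytes and stroma dropped between these times (6 of 6 and 4 of 4 tested called lower in WT, at medians of -6.55 and -4.83), and 5 of 6 tested red cell markers rose and Epor fell. In WT 4 of 5 endothelial, 4 of 5 megakaryocyte and 3 of 5 stem and progenitor markers also fell, 3 of 6 neutrophil and 3 of 3 mast cell and basophil markers rose, and 2 of 8 macrophage markers rose and 2 fell. Their part in the changes of the replication genes was not tested.

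From 24 h to 48 h in WT 37 of the 46 genes fell and 0 rose (80.4%, with 12% of all genes called lower and 13.2% higher). All 46 changes were negative, with a median of -1.03 (2.04-fold) against 0.03 over all genes, and on all 46 genes both 24 h arrays were above both 48 h arrays, which 31.4% of all genes showed. The largest changes were those of Mcm2, from 5967.2 and 6005.2 to 2296.2 and 1283.3 (-1.78 ± 0.26 SE), Orc6 (-1.63 ± 0.19 SE), Gins1 (-1.62 ± 0.16 SE) and Rfc4 (-1.60 ± 0.18 SE). The smallest was that of Orc4. The 9 genes not called were Orc3, Orc4, Mcm4, Cdc45, Gins2, Gins3, Pola1, Pold1 and Pold2. The count was 29 to 37 with 1 array left out.

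In the arrays labelled Rb1KO the same step gave 22 genes that fell and 0 that rose (47.8%, with 7.57% of all genes called lower and 13.4% higher), and all 46 changes were again negative, at a median of -0.47 (1.38-fold). Orc5 (-1.18 ± 0.15 SE), Orc1 (-0.93 ± 0.22 SE), Orc2 (-0.88 ± 0.17 SE) and Mcm2 (-0.86 ± 0.22 SE) were lowest. The count was 6 without replicate 1 of Rb1KO at 48 h and 14 without replicate 3 at 24 h. On 41 of the 46 genes the change was more negative in WT than in Rb1KO. The WT and Rb1KO steps share no arrays: 20 genes fell in both, 17 fell in WT and were not called in Rb1KO, 2 (Cdc45 and Gins2) the reverse, and 7 in neither.

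The difference between these steps was tested directly. No gene of the 46 was called for it (0 of 46, with 0.0275% of all genes called higher and 0.0183% lower). At an unadjusted p under 0.05, 20 were higher in Rb1KO and 0 lower, beside 772 of all 10916 genes in either direction. The median difference was 0.54, and the lowest limma adjusted p, 0.0552, was that of Orc6, at 1.23 ± 0.25 SE. The count was 2 without replicate 1 of Rb1KO at 24 h or at 48 h, and 5 without the 4 arrays apart.

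Over the whole culture, from 0 h to 48 h, the Rb1KO to WT difference grew for 10 of the 46 genes and shrank for 0 (21.7%, with 2.66% of all genes called higher and 0.824% lower), with a median growth of 0.63. The 10 were Orc6 (1.65), Cdt1 (1.02), Gmnn (0.78), Mcm3 (0.91), Rfc3 (1.29), Rfc4 (0.87), Prim1 (1.24), Rpa2 (1.33), Clspn (1.32) and Tipin (1.05), from 7 of the 11 complexes or role groups. The count was 6 without replicate 3 of WT at 0 h, replicate 2 of WT at 48 h or replicate 2 of Rb1KO at 48 h. It was 21 without the 4 arrays apart and 2 without arrays with Y-linked signal.

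**Figure D3:**
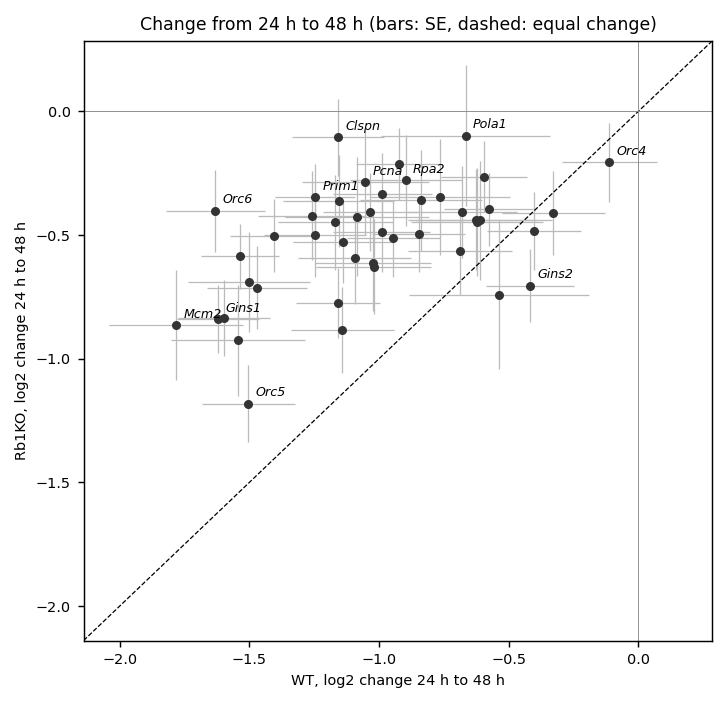
Change in log2(signal + 32) from 24 h to 48 h in WT (horizontal) and Rb1KO (vertical) for the 46 genes; points are limma estimates, bars their SE, and the dashed line marks equal change. All 46 points are below 0 on both axes, and 41 lie above the dashed line.

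Markers of other cells moved over the same step. From 24 h to 48 h 5 of 8 macrophage and 5 of 5 megakaryocyte markers rose in WT, and 7 of 8 and 5 of 5 in Rb1KO. Summed macrophage signal went from 25042.2 to 45055.7 at 24 h to 58709.1 to 79749.2 at 48 h in WT, and from 15592.6 to 41210.2 to 47391.1 to 84178.8 in Rb1KO. At 48 h none of these markers was called between the genotypes; the macrophage sums overlapped, while summed megakaryocyte signal was 44979.4 to 47700.0 in WT and 33007.9 to 42788.0 in Rb1KO, without overlap. Of 6 neutrophil markers 3 rose in WT and 4 in Rb1KO, and 0 were called between the genotypes at 48 h. Red cell markers fell over this step, 2 of 6 tested in WT (Epor and Klf1) and 4 of 6 in Rb1KO (Tfrc, Epor, Gata1 and Klf1), and 0 rose. The 7 measured of 10 listed summed to 196469 to 198695 at 24 h and 147344 to 164840 at 48 h in WT, and to 142114 to 269545 and then 133289 to 148010 in Rb1KO. Hepatocyte markers rose in 3 of 6 in WT and 0 of 6 in Rb1KO, and stromal ones in 2 of 4 and 0 of 4. Stem and progenitor markers rose in 2 of 5 in each genotype, mast cell and basophil markers in 0 of 3 and 2 of 3, and endothelial ones in 0 of 5 and 1 of 5; differences between the genotypes in these steps were not tested. Of the hepatocyte markers 1 of 6 tested, Fgb, was lower in Rb1KO at 48 h, with sums of 10300.8 to 40415.3 in WT and 4675.3 to 16553.3 in Rb1KO. Of the listed endothelial, stromal, mast cell and basophil, and stem and progenitor markers 0 were called between these genotypes at 48 h. Summed stromal signal was 367.3 to 583.4 in WT and 216.3 to 281.1 in Rb1KO, without overlap, with a list median of -0.73. The endothelial, mast cell and basophil, and stem and progenitor sums overlapped. The part of these cells in the fall or in the genotype difference was not tested.

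Set against WT at 0 h, the median of the 46 genes on single arrays was lowest in WT and p107KO at 48 h. It was -0.85 and -1.01 on the WT arrays at 48 h, -0.73 on the p107KO array, -0.20 and 0.04 on the Rb1KO arrays and 0.15 on the DKO array. At 24 h the Rb1KO arrays lay at 0.37 to 0.55, the DKO array at 0.38 and the WT arrays at 0.07 and 0.19. At 0 h all arrays lay between -0.09 and 0.23. On 33 of the 46 genes every 48 h array lacking Rb1 was above every 48 h array with it, against 15.6% of all genes. The 13 without this separation were Orc1, Orc3, Orc4, Orc5, Mcm10, Gins2, Gins3, Rfc2, Prim2, Pold1, Pold2, Pole2 and Timeless.

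**Figure D4:**
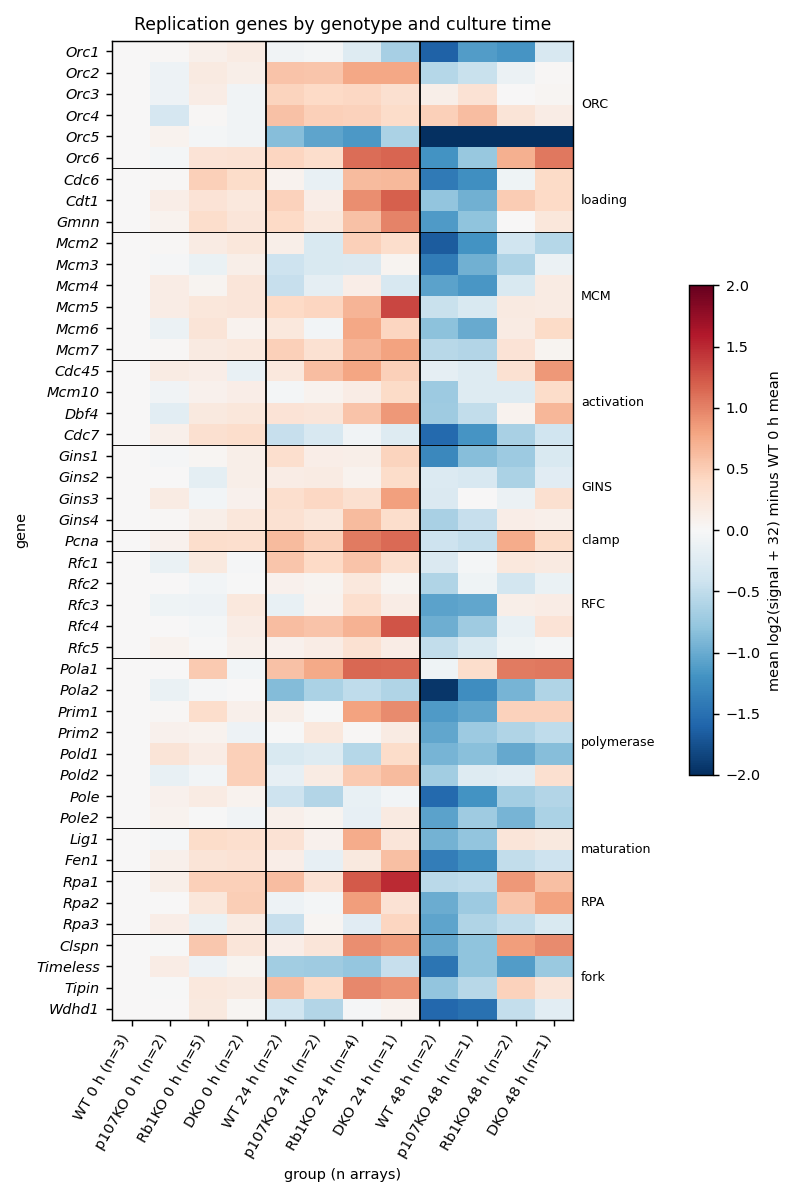
Mean log2(signal + 32) of each gene in each of the 12 groups minus its WT 0 h mean, with genes ordered by complex and groups by time; the colour scale ends at -2 and 2, which Orc5 at 48 h reaches or passes. Blue fills most of the WT and p107KO columns at 48 h, and most cells of the Rb1KO and DKO columns there are paler or red. Orc5 is blue in all 4 genotypes. Orc3, Orc4, Gins2 and Pold1 had lower values in Rb1KO than in WT at 48 h, none of them called. Each also had a further probe set, not shown, that was higher in Rb1KO, while another of Orc3 was lower.

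Loss of p107 alone moved none of the 46 genes past the test. In p107KO against WT at 0 h (2 and 3 arrays) 0 were called, and 0.00916% of all genes were. An unadjusted p under 0.05 was seen on 0 of the 46, beside 71 of all 10916 genes, and the median difference was 0.02. Averaged over times 0 were called, with 0.0183% of all genes called. Only 1, Rpa3 at 0.36 ± 0.10 SE, had an unadjusted p under 0.05 (limma adjusted p = 0.437), beside 708 of all 10916 genes. Over the 46 genes the lowest end of a 95% interval of the average difference was -0.47 and the highest was 0.64, in different genes. For each gene, changes within its own, narrower interval are not excluded. On the single p107KO array at 48 h 39 of the 46 genes were above the WT mean, at a median of 0.23, with no replicate.

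In fresh liver the double knockout had none of these genes past the test either. In DKO against WT at 0 h (2 and 3 arrays) 0 were called, with 0.183% of all genes called. At an unadjusted p under 0.05, 4 were higher (Cdc6, Pold1, Rpa1 and Rpa2) and 0 lower, beside 449 of all 10916 genes in either direction. Both DKO arrays lay above all 3 WT arrays on 26 of the 46 genes, against 15.3% of all genes; the median difference was 0.16. The p107KO arrays did so on 5 genes, against 9.0%. Whether p107 loss acted otherwise with Rb1 absent than with Rb1 present was tested at 0 h. For this 0 of the 46 were called, as were 0.0% of all genes, and the median was -0.0040. An unadjusted p under 0.05 was seen on 0 of the 46, beside 171 of all 10916 genes.

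Across the 3 times DKO and Rb1KO (4 and 11 arrays) differed on 0 of the 46 genes, with 0.999% of all genes called. At an unadjusted p under 0.05 DKO was higher on 10 genes and lower on 0, beside 1669 of all 10916 genes in either direction. The lowest limma adjusted p was 0.0737, for Rpa3 at 0.37 ± 0.10 SE, followed by Rfc4 at 0.39 ± 0.11 SE. Gins1, Gins2 and Gins3 were among the 10. DKO had 1 array at 24 h and 1 at 48 h in this comparison. A single gene was called without replicate 5 of Rb1KO at 0 h or replicate 1 at 24 h.

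Loss of Rb1 could also be measured on the p107-null background, with arrays that Rb1KO against WT did not use. This comparison gave each time the same weight. At 24 h it had 1 DKO array, which stood apart, and at 48 h it had 1 array of each genotype. That unreplicated 48 h pair differed by a median of 0.67 over the 46 genes. In DKO against p107KO averaged over times (4 and 5 arrays) 20 of the 46 genes rose and 0 fell (43.5%, with 4.41% of all genes called higher and 2.59% lower), at a median of 0.40. Y-linked signal was present on 4 of 4 DKO and 2 of 5 p107KO arrays, so sex was unbalanced in this comparison too, and its part was not tested. Of these 20, 19 were among the 27 that rose in Rb1KO against WT, which is 95% of the 20 and 70.4% of the 27, all with the same sign. The other was Mcm3, at 0.45 ± 0.13 SE (limma adjusted p = 0.0466). Of all 46 genes 58.7% rose in Rb1KO against WT. Each gene's spread was estimated in common for both comparisons, from all 27 arrays, so their calls are not fully independent. Mcm2, Mcm4, Cdc45, Cdc7, Gins4, Pola1, Pola2 and Pole were called in Rb1KO against WT alone; whether the effects differ was not tested. Orc6 rose by 0.99 ± 0.14 SE in DKO over p107KO and by 0.95 ± 0.10 SE in Rb1KO over WT, Prim1 by 0.84 ± 0.11 SE and 0.88 ± 0.08 SE, and Clspn by 0.86 ± 0.13 SE and 1.07 ± 0.09 SE.

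**Figure D5:**
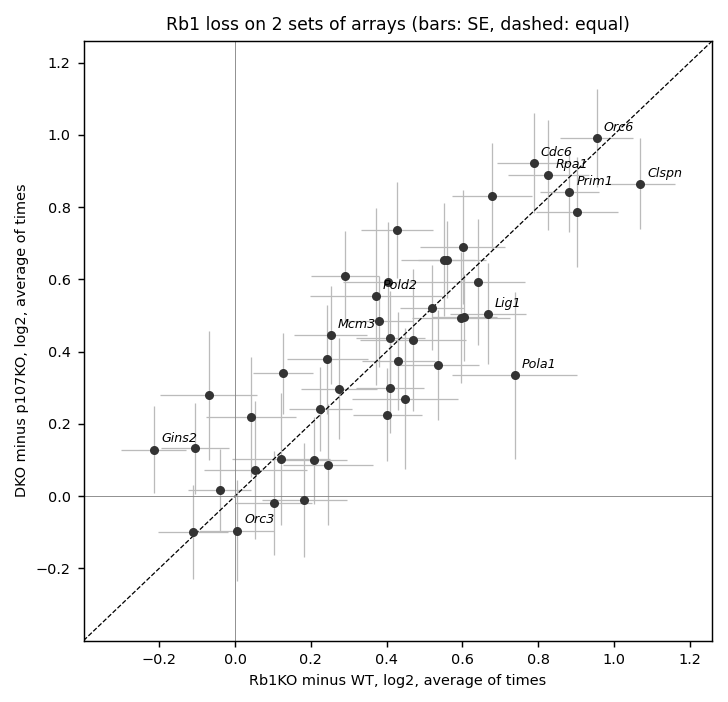
Average log2 difference for loss of Rb1 on the 46 genes, from Rb1KO minus WT (horizontal) and DKO minus p107KO (vertical), which use different arrays; points are limma estimates, bars their SE, and the dashed line marks equal differences. Most points lie above 0 on both axes (41 of 46 and 42 of 46), with Orc6 and Clspn at the far right.

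A further list of 30 genes that act at origins and forks, of which 29 were tested, gave 13 that rose and 0 that fell in Rb1KO against WT averaged over times, beside 10.3% and 8.57% of all genes, with a median of 0.25. At 48 h 12 rose and 0 fell, beside 7.46% and 2.91%, with a median of 0.65. From 24 h to 48 h 20 fell in WT, beside 12% of all genes, and 8 in Rb1KO, beside 7.57%. Fbxo5, the inhibitor of the anaphase-promoting complex also known as Emi1, had the largest average difference (1.41 ± 0.13 SE, limma adjusted p = 4.92e-08) and was 5.91-fold over WT at 48 h. Mcm9, a helicase of the same family as Mcm2 to Mcm7, rose by 0.92 ± 0.12 SE, Atad5, which unloads Pcna, by 0.86 ± 0.16 SE, and Donson, a helicase assembly factor, by 0.85 ± 0.09 SE. Pole4 rose by 0.59 ± 0.09 SE and the topoisomerase Top2a by 0.48 ± 0.09 SE. In DKO against p107KO 7 of the 29 rose and 1, the topoisomerase Top1, fell, beside 4.41% and 2.59% of all genes.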

How the data were processed

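RNA from 27 samples was hybridised 1 sample per array. The deposited values are linear intensity signals of 45037 probe sets, computed by the authors with MAS5 in GCOS 1.4, per the submitters' processing notes. Every array has a trimmed mean between 491.9 and 497.7, with 2% of values trimmed at each end, so every signal is relative to the rest of its array. No counts or detection calls were used. Probe sets were named through the platform annotation (34945 with 1 symbol, 932 with several and 9160 unnamed; symbols were updated by Entrez ID for 34741).

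Each gene was represented by the probe set with the highest mean log2(signal + 32). The lowest 40% of genes by that mean were left out. Groups were compared with limma 3.58.1 in R 4.3.3 (lmFit, eBayes with trend, 1 mean per group over all 27 arrays, 15 residual degrees of freedom), two-sided, with Benjamini-Hochberg adjustment over all genes and a threshold of 0.05. The spread is shared over all 12 groups, so a group with 1 array is assumed to vary like the others. The fit was tested on simulated data.

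The 46 genes, the other replication genes and the marker lists (red cell, hepatocyte, macrophage, megakaryocyte, neutrophil, mast cell and basophil, endothelial, stem and progenitor, stroma) were chosen with earlier results of these data known. Single array values at 48 h are given for the 2 genes of each complex with the smallest adjusted p in Rb1KO against WT averaged over times. For Pcna, alone in its group, and some of the others, values at 0 h or 24 h are given too. A few further genes also have array values. Alternatives changed the pseudocount (1 or 100), the filter (none or 60%), the normalization, the probe set rule, array weights, a block, the arrays fitted and each array left out.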

Additional observations from a re-analysis of the deposited data

Results flagged for a closer look

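Among 92 cases of a replication gene in a group of 4 or 5 arrays, 8 had an array far from the others of its group, by the gap to the nearest array relative to the group's range; chance gives about 1 such case in 20. In Rb1KO at 0 h replicate 5 stood above the others in this way on 4 genes. It gave 9864.9 for Cdc6 where the others lay between 6858.3 and 7356.8, and 10012.4 for Gmnn where they lay between 7643.7 and 7994.6. It gave 2958.0 for Cdc7 (others 2082.8 to 2282.1) and 3414.9 for Wdhd1 (others 2717.3 to 2869.3). This array is one of the 4 that stood apart over all genes. Replicate 4 of the same group was low for Pcna, at 29122.5 against 35855.6 to 37793.3.

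In Rb1KO at 24 h replicate 1, another array that stood apart, was low for Rfc1 at 1024.8 (others 1540.8 to 1662.8) and for Pold2 at 1713.2 (others 2259.0 to 2323.5). Replicate 2 was high for Gins4, at 4631.9 against 3787.8 to 3911.7. The cause of these deviations was not tested.

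The Rb1KO to WT difference was larger at 48 h than at 0 h for 10 genes by a test of the change itself (limma, log2 growth with adjusted p). Orc6 had the largest, 1.65 (adjusted p = 0.000264). It was 1.33 for Rpa2 (0.00481), 1.32 for Clspn (0.00118), 1.29 for Rfc3 (0.000684) and 1.24 for Prim1 (0.000541). It was 1.05 for Tipin (0.00492), 1.02 for Cdt1 (0.0273), 0.91 for Mcm3 (0.0316), 0.87 for Rfc4 (0.0263) and 0.78 for Gmnn (0.0185). All 10 rest on 2 arrays per genotype at 48 h.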

How the results depend on the processing

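The 194 calls of a replication gene in a comparison were refitted under the alternatives that could be run, giving 3586 refits, of which 3173 kept the call and 413 lost it, 4 of the latter with a changed direction. Those 4 were Mcm7 (-0.05) and Pcna (-0.09) in WT from 0 h to 24 h with quantile normalization, and Dbf4 in WT from 24 h to 48 h (0.03) and Cdc45 in Rb1KO from 0 h to 24 h (-0.06) with the mean over probe sets. The cause of changed counts was not tested, except that leaving out arrays leaves fewer of them. Counts below lack the share of all genes called in the same refit, so a drop need not be particular to these genes.

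For Rb1KO against WT, the count of genes higher at 0 h was 1 with the 60% filter or quantile normalization and 2 with array weights; at 24 h it was 5 without a filter, 3 with only the groups compared, 13 without the 4 arrays apart and 4 with Y-linked signal arrays removed. At 48 h it was 18 with only the groups compared and 11 without Y-linked signal. DKO against WT at 0 h had 3 with array weights. DKO against Rb1KO had 1 with the mean over probe sets and 5 with array weights.

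For WT from 0 h to 24 h the count of higher genes was 15 with array weights, with only the groups compared or without the 4 arrays apart, and 14 with the replicate block; that of lower genes was 7 with the mean over probe sets or without the 4 arrays apart, 8 with array weights and 9 with only the groups compared. For Rb1KO from 0 h to 24 h, 3 were lower with array weights, only the groups compared, without the 4 arrays apart or without Y-linked signal. From 24 h to 48 h in Rb1KO it was 10 with only the groups compared and 14 without Y-linked signal. The growth of the genotype difference from 24 h to 48 h had 2 calls with a pseudocount of 1, the 60% filter or array weights, 5 with quantile normalization or without the 4 arrays apart, and 1 with the mean over probe sets. That from 0 h to 48 h had 16 with array weights, 21 without the 4 arrays apart and 2 without Y-linked signal.

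With 1 array left out, counts for Rb1KO against WT ranged from 0 to 0 at 0 h, 2 to 10 at 24 h, 14 to 25 at 48 h and 23 to 30 in the average. They ranged from 0 to 1 for DKO against Rb1KO and 15 to 20 for DKO against p107KO. For WT they ranged from 1 to 10 higher and 2 to 4 lower from 0 h to 24 h, and 29 to 37 lower from 24 h to 48 h. For Rb1KO they ranged from 20 to 24 higher and 3 to 7 lower, and then 6 to 26 lower. The growth from 24 h to 48 h had 0 to 2 and that from 0 h to 48 h 6 to 14.

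The labels number replicates alike across groups. Deviations of same-numbered arrays from their group means had correlations of -0.167 to 0.217 in the pairs of groups compared. With so few arrays per group this cannot show whether the numbers pair them. The 24 h arrays numbered 1 that stood apart were not compared with each other in this way. The replicate block gave 29 higher genes at 48 h and 29 in the average; no other count moved by over 1.5 times than the one above. DKO comparisons could not be fitted without arrays with Y-linked signal, nor averages with DKO without the 4 arrays apart. The number of arrays per group, 1 to 5, limits the precision.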
